A study of Mus musculus with 19 samples.

Results

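Ckm, Ckb, Mybpc2, Acta1, Tnnt3 and Mylpf, the creatine kinases and striated sarcomere genes described here, are 6 of the 20408 genes measured by RNA-Seq in the suprarenal abdominal aorta (SRA) of 19 male mice. They were picked by gene symbol with the measured levels already known. Ckm and Mybpc2 were taken because they lay in opposite directions between groups. Acta1, Tnnt3 and Mylpf serve as a check for skeletal muscle carried along with the vessel, and Ckb is a second creatine kinase. Their own levels are therefore descriptions. Intervals and calls from the fit over all genes are given for them as part of that description, and support nothing by themselves. The lists of other genes set beside them were also chosen with earlier results of these data known. Counts of called genes in those lists are descriptions too. All mice were ApoE-/- and carried SMA-CreERT2, a Cre recombinase switched on by tamoxifen and driven by the Acta2 promoter. In IKKβ-/- mice Ikkβ was also Flox/Flox, and the IKKβ+/+ mice were littermates with the Cre but without the floxed alleles. All received tamoxifen from 8 weeks of age and carprofen, an anti-inflammatory painkiller, around the implantation of the pump. The groups were 5 saline-infused and 5 Ang II-treated IKKβ+/+ mice, and 4 saline-infused and 5 Ang II-treated IKKβ-/- mice, all taken after 24 h of infusion. Normalized counts are reads divided by the size factor of each mouse. The labels give the dose of Ang II as 500 to 1000 ng/min/kg, and the methods of the study give 1000 ng/min/kg for the sequenced SRA. The Cre is limited to cells that use the Acta2 promoter, so the other cells of the SRA still have the kinase. In bulk tissue, fewer cells of a type and less RNA per cell cannot be told apart.

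Creatine kinases move a phosphate between ATP and creatine, which lets a cell buffer its ATP close to the places that use it. Ckm encodes the muscle subunit, abundant in skeletal and cardiac muscle, and Ckb the brain-type subunit, which smooth muscle also uses. The sarcomere is the repeating unit of actin and myosin filaments in striated muscle, and smooth muscle has no sarcomeres. Acta1 encodes skeletal α-actin of the thin filament, and Tnnt3 the fast skeletal troponin T that ties the calcium sensor to that filament. Mybpc2 encodes the fast-type myosin-binding protein C, and Mylpf the regulatory light chain of fast skeletal myosin.

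The reads on genes numbered 11382573 to 19906694 in each mouse. Ikbkb, the gene of IKKβ, had a mean of 673 ± 78.6 normalized counts (SD, n = 5) in saline-infused and 726 ± 46.3 (n = 5) in Ang II-treated IKKβ+/+ mice. It had 515 ± 74.3 (n = 4) and 548 ± 87.9 (n = 5) in the IKKβ-/- mice, with individual values from 594 to 791 in IKKβ+/+ and from 430 to 672 in IKKβ-/- mice, ranges that overlap. The smooth muscle markers that define the tissue were high in every mouse, with a summed level of 15 contractile genes from 443685 to 869740. Mice X2350 and X2356, both Ang II-treated IKKβ+/+, stood apart by transcripts of catecholamine-making neurons or adrenal medulla. Th, the rate-limiting enzyme of catecholamine synthesis, had 98.5 normalized counts in mouse X2350 and 825 in mouse X2356, against at most 7.99 elsewhere. The 7.99 was in mouse X2370, a saline-infused IKKβ+/+ mouse. Dbh, another nerve marker, had 214 in X2350, 1674 in X2356 and 21.3 in X2370, against at most 4.23 elsewhere. Values without mice X2350 and X2356 are given beside the results they touch. By chi-square per gene, the pairs of mice within a group that differed most were IKKβ-/-. The value reached 348 (X2406 and X2409) with saline and 287 (X2383 and X2385) with Ang II. The highest values in IKKβ+/+ mice were 40.7 with saline and 78.1 with Ang II. Some IKKβ-/- pairs lay lower, down to 31.1 (X2384 and X2386). The part of this spread in the overlaps and missing calls of IKKβ-/- mice was not tested.

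Ckm spans chr7:19404776-19422841 on the plus strand of GRCm38, and Mybpc2 chr7:44501699-44524656 on the minus strand. Tnnt3 (chr7:142498836-142516009, plus) and Mylpf (chr7:127208890-127214298, plus) lie on chromosome 7 as well. Ckb spans chr12:111669361-111672338 and Acta1 chr8:123891769-123894751, both on the minus strand. The 300 bases around the RefSeq start site (250 before, 50 from the start on, GRCm38.p6) are printed for the creatine kinase pair, whose levels moved together, for Mybpc2, which moved against them, and for Acta1, the best known target of serum response factor in the set. Capitals mark E-boxes (CANNTG), CArG boxes and MEF2 sites on either strand, the elements that myogenic factors, serum response factor and MEF2 proteins are known to bind. The windows are chr7:19410844-19411143 for Ckm, chr12:111672289-111672588 for Ckb, chr7:44524620-44524919 for Mybpc2 and chr8:123894726-123895025 for Acta1, each written 5′ to 3′ on the strand of its gene.
Ckm: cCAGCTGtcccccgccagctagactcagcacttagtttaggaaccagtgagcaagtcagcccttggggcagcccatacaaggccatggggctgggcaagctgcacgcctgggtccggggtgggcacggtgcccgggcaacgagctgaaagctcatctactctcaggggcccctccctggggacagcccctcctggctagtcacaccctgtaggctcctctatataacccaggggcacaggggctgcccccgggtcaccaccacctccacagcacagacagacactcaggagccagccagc
Ckb: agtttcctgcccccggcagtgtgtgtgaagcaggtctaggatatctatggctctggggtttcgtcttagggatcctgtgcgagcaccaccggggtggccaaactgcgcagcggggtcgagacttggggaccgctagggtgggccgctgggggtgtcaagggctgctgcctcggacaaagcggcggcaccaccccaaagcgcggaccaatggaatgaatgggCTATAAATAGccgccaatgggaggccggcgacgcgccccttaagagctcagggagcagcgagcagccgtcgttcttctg
Mybpc2: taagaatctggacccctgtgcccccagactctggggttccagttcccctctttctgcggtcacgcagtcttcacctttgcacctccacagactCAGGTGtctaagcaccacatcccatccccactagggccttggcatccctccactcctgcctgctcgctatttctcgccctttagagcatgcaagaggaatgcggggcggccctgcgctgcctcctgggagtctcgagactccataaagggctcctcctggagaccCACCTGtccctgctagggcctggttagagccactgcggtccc
Acta1: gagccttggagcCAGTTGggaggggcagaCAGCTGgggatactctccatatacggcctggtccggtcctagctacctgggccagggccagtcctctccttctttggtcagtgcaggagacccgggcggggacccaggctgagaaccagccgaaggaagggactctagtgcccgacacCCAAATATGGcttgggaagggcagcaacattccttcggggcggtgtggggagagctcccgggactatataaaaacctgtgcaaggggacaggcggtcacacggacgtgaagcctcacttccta

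In these windows Ckm had 1 E-box, CAGCTG, ending at base -244 counted from the start site, and no CArG box or MEF2 site. Ckb had no E-box and 1 MEF2 site, CTATAAATAG, from -29 to -20, which overlaps the letters TATAAA from -28 to -23 (TATAAA was in 13.6% of all promoters). Mybpc2 had 2 E-boxes, at -157 to -152 and at 9 to 14, and neither of the other elements. Acta1 had 2 E-boxes and 1 CArG box, CCAAATATGG, from -73 to -64. Among 32851 mouse promoters of the same length, 72.3% held an E-box, 1.63% a CArG box and 3.19% a MEF2 site. The start site of Ckm lies inside the longer gene span of the annotation, and Tnnt3 had no entry in the promoter table.

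Ckm was lowest in saline-infused IKKβ+/+ mice, and its mean was higher with Ang II in both genotypes. Values of single mice are given in the order of their numbers unless stated otherwise. The 5 saline-infused IKKβ+/+ mice had 57.9, 23.0, 27.3, 20.9 and 15.9 normalized counts, and the 5 Ang II-treated ones had 278, 192, 94.3, 391 and 189. The ranges did not overlap, and mouse X2370, with 57.9, lay above the other saline-infused mice. On the log2(normalized count + 1) scale the difference was 2.93 (SE 0.41, 95% interval 2.07 to 3.79), a 7.62-fold higher level with Ang II. Without mice X2350 and X2356 it was 3.16.

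The 4 saline-infused IKKβ-/- mice had 45.4, 41.1, 88.3 and 129.9 normalized counts of Ckm, and the 5 Ang II-treated IKKβ-/- mice 219, 106, 96.1, 109 and 262. The ranges overlapped, since mouse X2409 (saline) with 129.9 lay above 3 of the 5 Ang II-treated mice. The log2 difference was 1.08 (SE 0.44, 95% interval 0.17 to 1.99). The effect of Ang II in IKKβ-/- minus that in IKKβ+/+ mice was -1.85 (SE 0.60, 95% interval -3.10 to -0.60). Between genotypes, IKKβ-/- minus IKKβ+/+, the log2 difference of Ckm was 1.35 with saline (SE 0.44, 95% interval 0.44 to 2.255) and -0.51 with Ang II (SE 0.41, 95% interval -1.36 to 0.35). The comparisons share their groups, so these values are not independent of each other. The order of the group means was saline IKKβ+/+ (29.0 ± 16.7), saline IKKβ-/- (76.2 ± 41.7), Ang II IKKβ-/- (158 ± 76.7) and Ang II IKKβ+/+ (229 ± 111, SD). Each neighbouring pair in this order overlapped.

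**Figure D1:**
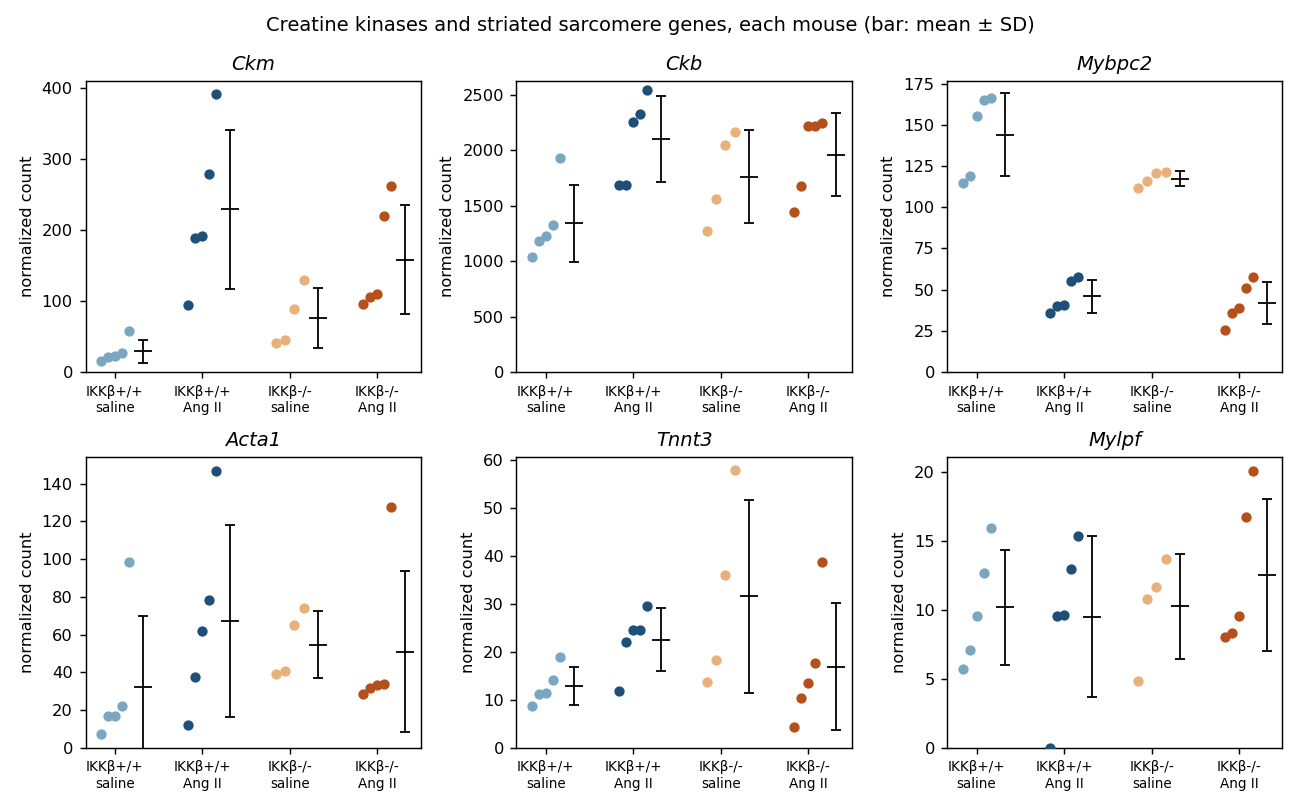
Normalized counts (y axis, from 0) of the 6 genes in each mouse (points) of the 4 groups, with the mean and SD as a black bar; the lower SD bar of Acta1 in saline IKKβ+/+ mice runs below 0 and is cut by the axis. Mybpc2 lies between 111.7 and 166 in all saline-infused mice and between 25.4 and 57.8 in all Ang II-treated mice, while Ckm of saline-infused IKKβ+/+ mice ends at 57.9 and that of Ang II-treated IKKβ+/+ mice starts at 94.3.

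Ckb was the most abundant of the 6 transcripts in every group. Its level was 1034, 1183, 1226, 1327 and 1931 normalized counts in order of size in saline-infused IKKβ+/+ mice, and 1687, 1690, 2256, 2322 and 2546 in the Ang II-treated ones. Mouse X2370 was again the highest of its group, and with 1931 it lay above 2 of the Ang II-treated mice. The log2 difference was 0.66 (SE 0.18, 95% interval 0.28 to 1.04), a 1.58-fold higher level. Ckb in IKKβ-/- mice was at 1269, 1561, 2043 and 2168 with saline and 1443, 1673, 2220, 2221 and 2242 with Ang II, and the log2 difference was 0.16 (SE 0.19, 95% interval -0.24 to 0.57). The difference between these effects was -0.50 (95% interval -1.05 to 0.06).

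Ckm made up a small part of the summed creatine kinase count. Its share of Ckm plus Ckb ran from 1.28% to 2.91% (median 1.91%) in saline-infused and from 5.29% to 14.4% (median 10.2%) in Ang II-treated IKKβ+/+ mice. The share in IKKβ-/- mice ran from 2.56% to 5.65% with saline and from 4.54% to 10.6% with Ang II. Per 1000 bases of merged exons, Ckb had a level of 910 and Ckm of 10.6 in saline-infused IKKβ+/+ mice, and of 1427 and 83.5 in the Ang II-treated ones. The exon length of Ckm, 2742 bases, includes upstream exons of the annotation, which lowers its level per length.

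Of the 3 other genes of creatine handling that could be tested, 1 passed, with Ang II in IKKβ+/+ mice. In that comparison 8.66% of all genes passed and 8.42% did not overlap, and nothing is read from a count this small. Slc6a8, the creatine transporter of the cell membrane, rose with Ang II in IKKβ+/+ mice from 1234 to 1547 normalized counts (log2 difference 0.33, SE 0.09, limma adjusted p = 0.046), with no overlap between the groups. It had a log2 difference of 0.02 (adjusted p = 0.95) in IKKβ-/- mice, and the difference between the 2 effects, -0.31, did not pass the test (adjusted p = 0.40). The call in IKKβ+/+ mice was lost without mouse X2350, X2358, X2373 or X2378, and without mice X2350 and X2356 together. Gatm and Gamt, the enzymes that make creatine, passed the test in no comparison, with log2 differences for Ang II of -0.71 and -0.12 in IKKβ+/+ mice and of -0.13 and -0.53 in IKKβ-/- mice. Ckmt1, a mitochondrial creatine kinase, was too low to be tested and reached 55.9 normalized counts in mouse X2356 and 7.497 in mouse X2350. These 2 mice are those with the most catecholamine transcripts. Ckmt2 was not among the 20408 genes measured.

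Mybpc2 was lower in every Ang II-treated mouse than in every saline-infused mouse of either genotype. The saline-infused IKKβ+/+ mice had 166, 165, 155, 119 and 115 normalized counts and the Ang II-treated ones 57.8, 55.5, 40.6, 40.1 and 35.8. The saline-infused IKKβ-/- mice had 121, 116, 111.7 and 121.2, and the Ang II-treated ones 50.8, 38.9, 25.4, 57.8 and 36.0. The log2 difference was -1.63 (SE 0.21, 95% interval -2.07 to -1.197) in IKKβ+/+ and -1.52 (SE 0.22, 95% interval -1.99 to -1.06) in IKKβ-/- mice. That is a level of 0.322 and 0.348 times that with saline. The effects differed by 0.11 (95% interval -0.52 to 0.75). Between genotypes the difference was -0.28 (95% interval -0.74 to 0.19) with saline and -0.16 (95% interval -0.60 to 0.27) with Ang II. Without mice X2350 and X2356 the difference in IKKβ+/+ mice was -1.70. The ratio of Ckm to Mybpc2 reads, which needs no scaling between libraries, ran from 0.139 to 0.348 with saline and from 2.32 to 9.74 with Ang II in IKKβ+/+ mice, and from 0.355 to 1.07 and from 1.89 to 7.29 in IKKβ-/- mice.

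The rest of its family was near the limit of detection. Mybpc3, the cardiac form, had group means from 1.13 to 3.43 normalized counts, and Mybph from 0.263 to 2.36, and neither was tested. Mybpc1, the slow form, and Mybphl were not among the 20408 genes measured.

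**Figure D2:**
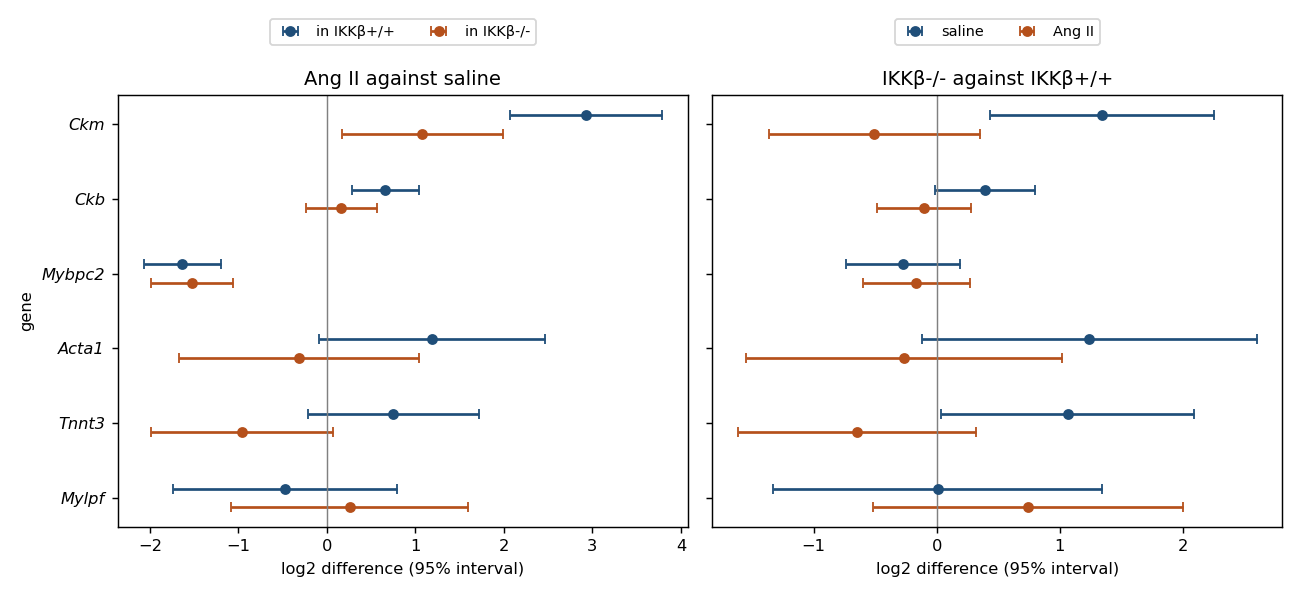
Log2 differences (x axis) of the 6 genes (y axis) for Ang II against saline in each genotype (left) and for IKKβ-/- against IKKβ+/+ mice with each infusion (right), as points with 95% intervals not adjusted for the number of genes. Mybpc2 lies at -1.63 and -1.52 with Ang II in the 2 genotypes, while Ckm lies at 2.93 and 1.08.

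Acta1 differed widely between mice of the same group. It had 98.5, 22.2, 16.7, 17.1 and 7.17 normalized counts in saline-infused and 147, 37.4, 12.1, 62.1 and 78.5 in Ang II-treated IKKβ+/+ mice. Mouse X2370 stood far above its group, and mouse X2356 was below 4 of the saline-infused mice. The values of IKKβ-/- mice were 40.5, 65.3, 73.9 and 39.2 with saline and 127.5, 28.6, 31.7, 33.7 and 33.4 with Ang II, where mouse X2380 alone was high. The log2 difference was 1.19 (SE 0.61, 95% interval -0.09 to 2.47) in IKKβ+/+ and -0.32 (SE 0.65, 95% interval -1.68 to 1.04) in IKKβ-/- mice. In IKKβ+/+ mice it was 1.72 without mouse X2370 and 0.81 without mouse X2350, and in IKKβ-/- mice -0.71 without mouse X2380.

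Among the 5 other actins, 1 gene passed the test, with Ang II in IKKβ+/+ mice and between genotypes with saline. Of all genes 8.66% and 5.47% passed there, and nothing is read from a count this small. Actg2, the enteric smooth muscle γ-actin, rose with Ang II in IKKβ+/+ mice from 2552 to 5556 normalized counts (log2 difference 1.11, SE 0.23, adjusted p = 0.012) and kept the call in all alternatives run. Its difference in IKKβ-/- mice was -0.14 (adjusted p = 0.83), and the difference between the effects, -1.25, did not pass (adjusted p = 0.24). Actg2 was also higher in saline-infused IKKβ-/- than IKKβ+/+ mice (0.79, adjusted p = 0.088), a call lost when any of the 9 mice compared was left out. Actc1, cardiac α-actin, had the same order of signs as Acta1, with 1.35 (adjusted p = 0.15) and -1.03 (adjusted p = 0.35). Acta2, the smooth muscle α-actin, had 0.44 (adjusted p = 0.39) and -0.21 (adjusted p = 0.77). Per 1000 exon bases Acta2 had 89124 normalized counts in saline-infused IKKβ+/+ mice against 22.4 for Acta1 and 15.04 for Actc1.

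**Figure D3:**
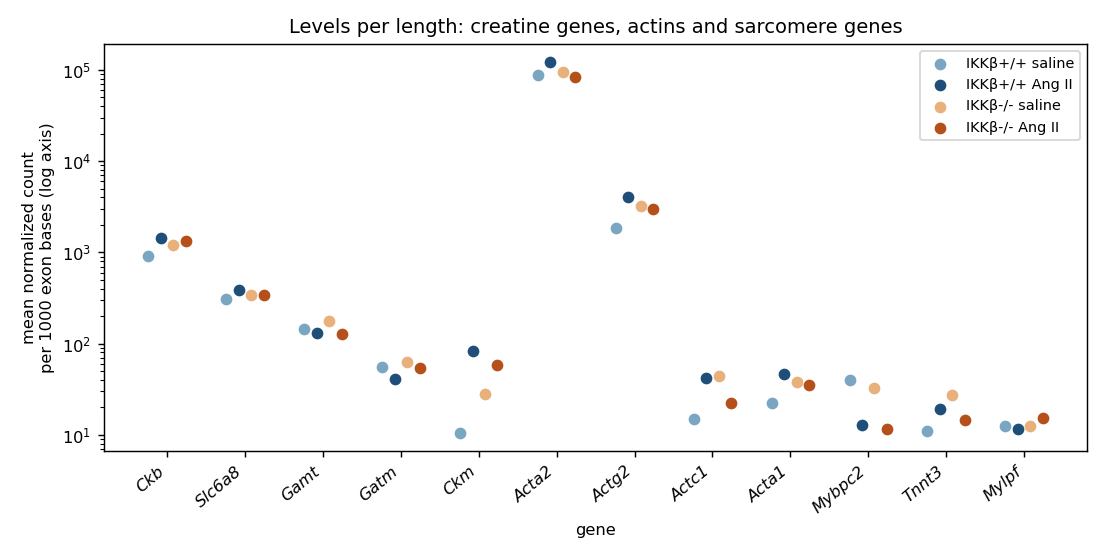
Mean normalized count per 1000 bases of merged exons (y axis, log scale) of creatine genes, actins and sarcomere genes (x axis) in the 4 groups (colours). Ckm goes from 10.6 to 83.5 between saline-infused and Ang II-treated IKKβ+/+ mice and stays below Ckb, at 910 and 1427.

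Tnnt3 and Mylpf had few reads in all mice, at most 55 and 20. Tnnt3 had 11.3, 11.1, 14.1, 18.99 and 8.77 normalized counts in saline-infused and 24.6, 24.5, 29.6, 21.97 and 11.9 in Ang II-treated IKKβ+/+ mice. The IKKβ-/- mice had 18.3, 57.9, 36.0 and 13.8 with saline and 38.8, 13.5, 4.23, 17.7 and 10.3 with Ang II. The log2 difference was 0.75 (SE 0.46, 95% interval -0.22 to 1.72) in IKKβ+/+ and -0.96 (SE 0.49, 95% interval -1.98 to 0.07) in IKKβ-/- mice. All 4 groups of Mylpf overlapped, with group means of 10.2 ± 4.17, 9.49 ± 5.84, 10.2 ± 3.81 and 12.5 ± 5.51 (SD) in saline-infused and Ang II-treated IKKβ+/+ and in saline-infused and Ang II-treated IKKβ-/- mice. Mouse X2350 had no read of Mylpf, and its log2 difference in IKKβ+/+ mice went from -0.47 to 0.26 without that mouse.

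All 6 genes passed the filter on low values, which asked for 10 normalized counts or more in 4 mice. A called gene had a limma adjusted p below 0.1 and changed more than 1.2-fold. With Ang II in IKKβ+/+ mice 3 of the 6 were called, where 8.66% of 14845 genes were. Ckm and Ckb were called higher, as were 4.33% of all genes, and Mybpc2 lower, as were also 4.33%. Ckm and Mybpc2 did not overlap between the groups, where 8.42% of genes did not. Among IKKβ-/- mice Mybpc2 alone was called with Ang II, where 5.29% of genes were (2.59% higher and 2.69% lower), and it alone did not overlap, which held for 5.29% as well. None of the 6 was called for the difference between the effects, where 0.0% of genes were. Between genotypes none was called with saline (5.47% of genes, 3.4% higher and 2.07% lower) or with Ang II (0.128%, 0.0202% higher and 0.108% lower), and none was free of overlap (8.76% and 1.54% of genes). Since the genes were picked for these values, nothing is read from the counts. The call of Ckb was lost without mouse X2350, X2358, X2373 or X2378, and Acta1 was called as well without mouse X2356. Ckm was called with Ang II in IKKβ-/- mice without mouse X2409. Between genotypes with saline it was called without mouse X2356, X2358, X2370, X2380 or X2386, without X2350 and X2356 together, and with DESeq2, array weights or only the groups compared, and DESeq2 also called it for the difference between the effects.

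The other striated muscle genes that passed the test with Ang II, Tcap and Casq1, lay below their saline level. Of 28 genes of fast fibres, slow fibres and muscle metabolism in the table, 19 could be tested. With Ang II 1 of 19 fell and none rose in IKKβ+/+ mice, 2 of 19 fell and none rose in IKKβ-/- mice, and none differed in the effect of Ang II between genotypes. Among all genes 4.33% were called lower in IKKβ+/+ and 2.69% in IKKβ-/- mice, and nothing is read from counts this small. At an unadjusted p under 0.05 the last count was 2, and edgeR and DESeq2 gave 0 each. The medians of the 8 fast fibre genes tested were -0.35 and -0.94 on the log2 scale in IKKβ+/+ and IKKβ-/- mice, of the 4 slow fibre genes 0.08 and -1.13, and of the 7 metabolic genes -0.21 and -0.24, beside 0.0056 and -0.0029 over all genes. Between genotypes with saline, IKKβ-/- minus IKKβ+/+, the medians were 0.32, 0.66 and 0.32 in the same order, beside -0.0196 over all genes.

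Tcap, the titin cap protein of the Z-disc, was the gene that fell in both genotypes. Its mean went from 538 to 138 normalized counts with Ang II in IKKβ+/+ mice (log2 difference -1.66, SE 0.50, adjusted p = 0.063) and from 1274 to 414 in IKKβ-/- mice (-1.72, SE 0.53, adjusted p = 0.089). The IKKβ+/+ groups overlapped and the IKKβ-/- groups did not. The first call was lost without mouse X2350, X2358, X2376 or X2378 or without X2350 and X2356 together, and the second without any 1 of mice X2380, X2384, X2385, X2386, X2401, X2406 and X2409, with array weights and with edgeR. Tcap was also higher in saline-infused IKKβ-/- than IKKβ+/+ mice (1.67, adjusted p = 0.098), a call lost without mouse X2370, X2372, X2373, X2401, X2403, X2406 or X2409, and without the filter, with TMM, with edgeR and with DESeq2. The difference between the effects on Tcap was -0.06 (adjusted p = 0.98). Casq1, a calcium-storing protein of the sarcoplasmic reticulum, fell in IKKβ-/- mice from 564 to 256 (-1.15, SE 0.26, adjusted p = 0.022) without overlap, and kept the call in all alternatives run. In IKKβ+/+ mice its difference was -0.50 (adjusted p = 0.26), and the difference between the effects, -0.65, did not pass (adjusted p = 0.50).

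**Figure D4:**
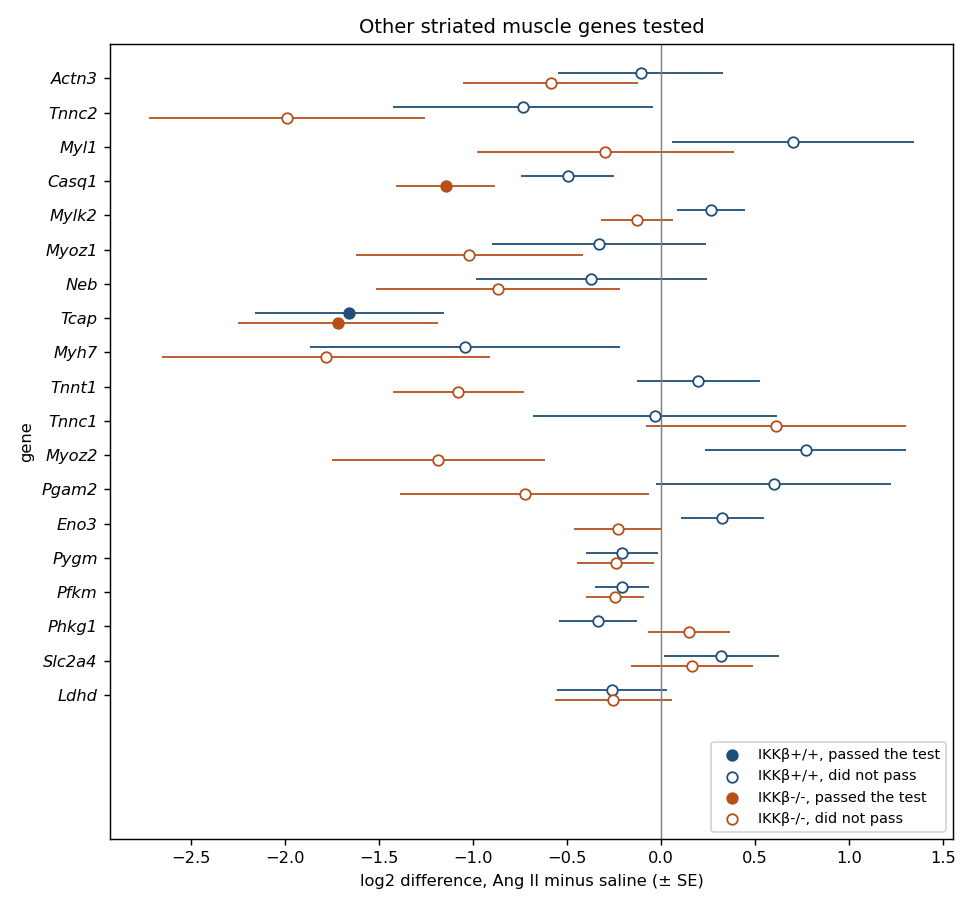
Log2 differences, Ang II minus saline (x axis, with SE), of the 19 tested striated muscle genes that are not among the 6 (y axis), in IKKβ+/+ (blue) and IKKβ-/- mice (orange); filled points passed the test. The 3 filled points, Tcap at -1.66 and -1.72 and Casq1 at -1.15, all lie below 0.

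Transcripts of fast myosin heavy chains were at or near 0 in most mice. Myh1 and Myh2, fast myosin heavy chains, had group means from 0.213 to 7.39 and from 0.744 to 1.97 normalized counts. Myh1 reached 25.7 in mouse X2385, an Ang II-treated IKKβ-/- mouse, and 28.8 in mouse X2406, a saline-infused IKKβ-/- mouse, which also had the highest Tnnc2 (45.0), Mb (30.6) and Myh6 (187). Ckm in mouse X2406 was 88.3, above 7 of the other 8 saline-infused mice and below the lowest Ang II-treated mouse, at 94.3. Without mouse X2406 the Ang II difference of Ckm in IKKβ-/- mice was 1.201 and that of Mybpc2 -1.55. Mouse X2403, also saline-infused IKKβ-/-, had the highest Tnnt3 (57.9), Tnnt1 (106) and Tnnc1 (43.2) of all mice. It had 12.6 of Mb, no read of Myh1 or Myh2, and 41.1 of Ckm. Without mouse X2403 the Ang II difference of Ckm in IKKβ-/- mice was 0.84. The 14 fast fibre genes other than the members summed to between 1229 and 2162 normalized counts in saline-infused and between 885 and 1471 in Ang II-treated IKKβ+/+ mice. The sums in IKKβ-/- mice were between 1817 and 2596 and between 871 and 1428. Most of these sums came from Casq1, Tcap and Mylk2. The ratio of Ckm to the summed list had a median of 0.0150 with saline and 0.213 with Ang II in IKKβ+/+ mice. Myh4, Pvalb, Myl2, Myl3, Mybpc1, Smpx, Ampd1, Pax7, Myf5, Myf6, Myod1 and Myog were not among the 20408 genes measured. Every gene measured had reads in 4 or more mice.

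Transcripts of the smooth muscle contractile apparatus were compared as the tissue's own counterpart. This list was chosen with earlier results of these data known, so its counts are descriptions. With Ang II in IKKβ+/+ mice 5 of 15 rose and none fell, where 4.33% of all genes were called higher: Actg2, Tagln (0.66, adjusted p = 0.065), Cnn1 (0.82, adjusted p = 0.030), Des (0.86, adjusted p = 0.067) and Tpm2 (0.80, adjusted p = 0.020). Tagln (transgelin) and Cnn1 (calponin) bind actin, Des is desmin of the intermediate filaments, and Tpm2 is β-tropomyosin. The median of the 15 was 0.31, against 0.0056 over all genes, and 14 of 15 were above 0. None of 15 was called by limma in IKKβ-/- mice (0 at an unadjusted p under 0.05) and the median was -0.16, and for the difference between the effects none was called (7 at an unadjusted p under 0.05) and the median was -0.51. The saline groups already differed: IKKβ-/- minus IKKβ+/+, the median was 0.34 and 14 of 15 were above 0. Of these 15, 7 had an unadjusted limma p under 0.05, and Actg2 alone was called, where 3.4% of all genes were called higher. With Ang II the median between genotypes was -0.19. The comparisons share their groups, so the effect in IKKβ-/- mice also rests on their saline level. Actg2 and Tpm2 kept the call in all 18 alternatives, and Cnn1 lost it without mouse X2350. Des lost it without mouse X2350, X2358, X2372, X2376 or X2378, and Tagln without X2350, X2358, X2370, X2373, X2376 or X2378, among others. Of the read-length windows of Tagln transcripts, 51.5% also occur in annotated transcripts of Gm48529 or Pcsk7, so its reads may be shared.

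Among 16 targets of serum response factor, which drives many actin and muscle genes, Tpm4 (0.72, adjusted p = 0.036) and Fhl1 (0.48, adjusted p = 0.085) rose and Fos (-1.71, adjusted p = 0.088) fell in IKKβ+/+ mice. Of all genes 4.33% were called higher and 4.33% lower there. Among IKKβ-/- mice 4 of 16 fell and none rose, where 2.69% of all genes were called lower: Ccn1 (-2.71, adjusted p = 0.019), Egr1 (-1.91, adjusted p = 0.015), Fos (-2.91, adjusted p = 0.014) and Fosb (-2.88, adjusted p = 0.048). The latter 3 are immediate early transcription factors. The call of Fos in IKKβ+/+ mice was lost in 12 of 18 alternatives, with each Ang II-treated mouse left out among them, and that of Fhl1 in 10 of 18, with each saline-infused mouse left out among them. Tpm4 lost the call without mouse X2350 or X2358, and Fosb in IKKβ-/- mice without X2401 or X2409. For the difference between the effects none of the 16 was called by limma (8 at an unadjusted p under 0.05). Between genotypes with saline none was called either. The median there, IKKβ-/- minus IKKβ+/+, was 0.27, and 13 of 16 were above 0. In the list of the skeletal muscle lineage 2 of 5 tested fell in IKKβ+/+ mice, where 4.33% of all genes were called lower. These were Mef2c, a transcription factor (-0.61, adjusted p = 0.060), and Chrna1, the muscle acetylcholine receptor subunit (-1.23, adjusted p = 0.054). Mef2c lost the call without mouse X2350, X2358, X2373, X2376 or X2378, and Chrna1 without X2350, X2358, X2372 or X2376. Chrna1 was also lower in saline-infused IKKβ-/- mice (-1.64, adjusted p = 0.047), a call lost without mouse X2403 or X2406.

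Markers of other cell types moved in some of the same comparisons. In IKKβ-/- mice 8 of 9 white adipocyte markers tested rose with Ang II, where 2.59% of all genes were called higher, among them Adipoq (4.70, adjusted p = 0.013), with summed levels from 3431 to 7817 with saline and from 5352 to 53961 with Ang II. None of the 9 passed in IKKβ+/+ mice, with sums from 3744 to 21095 and from 5213 to 13141, and none for the difference between the effects (8 at an unadjusted p under 0.05). Of the 6 nerve markers tested, Uchl1 (0.86, adjusted p = 0.035) rose in IKKβ+/+ mice, a call lost without X2350 and X2356 together, and Sox10 (1.74, adjusted p = 0.097) in IKKβ-/- mice, a call lost in 11 of 17 alternatives. Of the 7 endothelial markers Tek (-1.08, adjusted p = 0.030) and Cldn5 (-1.16, adjusted p = 0.052) fell in IKKβ+/+ mice and Kdr (1.79, adjusted p = 0.099) rose in IKKβ-/- mice. In each genotype 2 of the 7 were above 0, and the medians were -0.62 in IKKβ+/+ and -0.25 in IKKβ-/- mice. Tek lost the call without mouse X2358, Cldn5 without X2350, X2358 or X2373, and Kdr in 8 of 17 alternatives. Of the 7 fibroblast markers Lum (-1.27, adjusted p = 0.076) and Cd34 (-0.80, adjusted p = 0.042) fell in IKKβ+/+ mice, calls lost in 9 and 3 of 18 alternatives, in both without mouse X2350 or X2358. Of 8 macrophage markers Cd68 (-0.93, adjusted p = 0.067) and Adgre1 (-1.02, adjusted p = 0.078) were lower in saline-infused IKKβ-/- than IKKβ+/+ mice, calls lost in 6 and 8 of 17 alternatives. No brown adipocyte marker of 8 and no cardiac gene of 6 passed with Ang II. Of all genes 4.33% were called higher and 4.33% lower with Ang II in IKKβ+/+ mice, and 2.59% higher in IKKβ-/- mice. Between genotypes with saline 2.07% were called lower. Nothing is read from the counts of nerve, endothelial, fibroblast and macrophage markers, which are small. The part of these cell types in the levels of the 6 genes was not tested.

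Across the 19 mice, Ckm followed the creatine kinase of the other type and the smooth muscle genes more than the summed fast fibre genes. Most of that sum came from Casq1, Tcap and Mylk2, so it says little about the transcripts that define fast fibres. Tcap was called lower with Ang II in both genotypes and Casq1 in IKKβ-/- mice. Pearson's r of log2 values was 0.85 with Ckb and 0.71 with the summed smooth muscle genes, and -0.56 with the summed fast fibre genes. After the group means were taken out these were 0.73, 0.71 and -0.21. The values before that step include the group differences for which Ckm was picked. Likeness to the summed smooth muscle genes was not particular to Ckm. With the group means out it was 0.62 for Mybpc2, 0.57 for Ckb, 0.52 for Acta1, 0.33 for Tnnt3 and -0.39 for Mylpf. Between Ckm and Mybpc2 r was -0.72 and, with the group means out, 0.28, and between Ckm and Acta1 0.61 and 0.65. These are descriptions over mice that share groups and size factors.

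**Figure D5:**
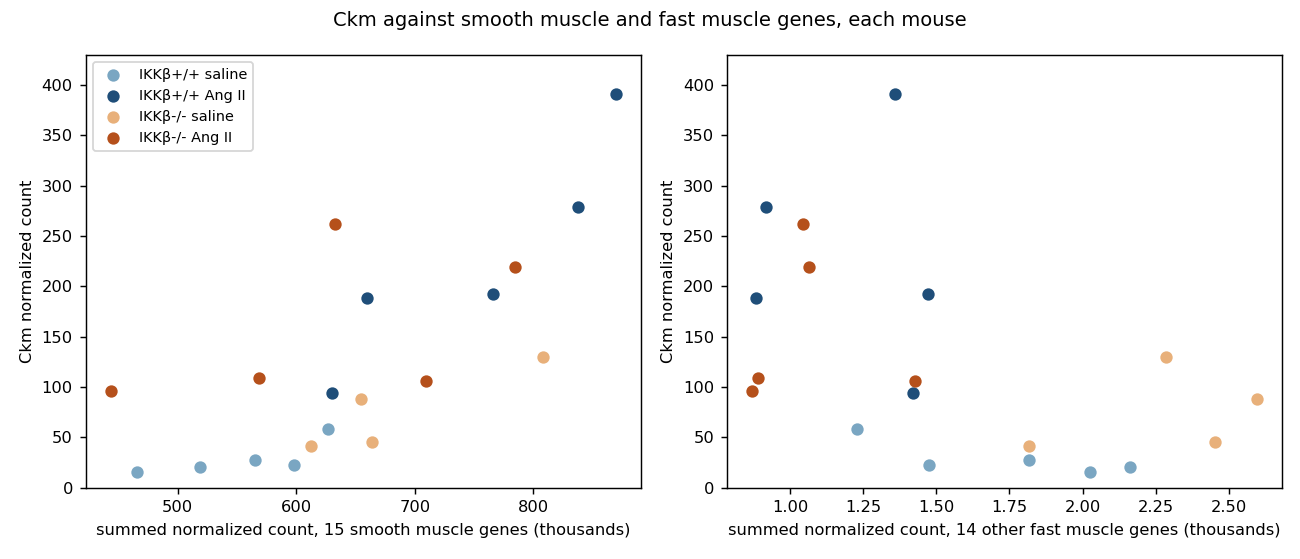
Ckm (y axis, normalized count) against the summed normalized count of 15 smooth muscle genes (left) and of 14 other fast muscle genes (right), in units of 1000 (x axis), for each mouse (points, coloured by group). Ckm and the smooth muscle sum rise together (r = 0.71 on the log2 scale). The highest fast muscle sums, up to 2596 in saline-infused IKKβ-/- mice, go with Ckm of 129.9 or less. Most of the fast muscle sum came from Casq1, Tcap and Mylk2.

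Among the tested genes with the pattern most like Ckm over the 19 mice were Hebp2 (r = 0.89), Fam149b (0.87), Tagln (0.86) and Ckb (0.85). With the group means out they were Mfn2 (0.88), P2rx1 (0.84), Sdc3 (0.81), Aldh18a1 (0.81) and Mylk (0.81). For Ckb the first were Timp4 (0.91), S1pr3 (0.85) and Inf2 (0.85), for Mybpc2 Brip1 (0.90), Fbln5 (0.89) and 2210407C18Rik (0.88), and for Acta1 P2rx1 (0.86), Bdh1 (0.85) and Nkx6-1 (0.85). The highest for Tnnt3 was Ttc19 (0.79) and for Mylpf A330009N23Rik (0.82). The highest of 14844 correlations is high by its selection alone.

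Some reads of these genes could belong to neighbours or copies. The methods of the study describe the libraries as stranded, which can separate neighbours on the other strand. Whether the deposited counts used the strand was not stated. Of the windows of 84 bases in annotated Ckm transcripts, 7.33% also occur, on the other strand, in the overlapping antisense gene A930016O22Rik, which had 0 to 14.4 normalized counts. For Ckb 5.11% occur in the copy Gm12892, which had 1.59 to 10.9, and for Mybpc2 1.11% in Gm44646, a gene on the opposite strand. Acta1, Tnnt3 and Mylpf shared none.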

How the data were processed

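RNA-Seq of the SRA was read from 1 table of 20408 genes in 19 mice. As signal, the authors deposited counts divided by the DESeq2 size factor of each mouse (normalized counts). Per the labels and the methods of the study, poly(A) libraries were sequenced as single reads, trimmed with Trimmomatic 0.35, aligned to GRCm38 with STAR 2.7.1a and normalized with DESeq2 1.30.1. All values (100%) lay within 0.05 reads of a whole multiple of 1 read, from which reads were recovered. In mouse X2359, 1 read is worth 0.994, so close to 1 that its multiples tell little. Between 11382573 and 19906694 reads per mouse set the precision, and the mice are separate animals.

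The 14845 genes that reached 10 normalized counts in 4 or more mice were tested (5563 did not) with limma 3.58.1 in R 4.3.3. The fit was lmFit with eBayes (trend) on log2(value + 1), over all 4 groups at once, two-sided, with Benjamini-Hochberg adjustment over all genes tested. Calls needed an adjusted p below 0.1 together with a 1.2-fold change. The pseudocount shrinks the change of genes with few reads.

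The 6 genes and the lists were chosen with earlier results of these data known. From each list the called genes were named (up to 6 by size of change), up to 4 with the highest mean, and defining genes near 0 or not among those measured. For each of the 6 genes those with the highest Pearson r over mice were named. A gene that this rule would name is not reported here. Alternatives were a pseudocount of 4, no filter, only the groups compared, array weights, TMM scaling and the edgeR 4.0.16 and DESeq2 1.42.0 tests on recovered reads, other thresholds, and each mouse left out with the genes tested kept as they were. Leaving out mice X2350 and X2356 together was chosen after seeing the data. Simulated data with known changes were used to test the model. Exon lengths and gene positions are from GENCODE vM21, promoters from RefSeq (GRCm38.p6), where 5 of the 6 genes matched. Motifs were searched on both strands.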

Additional observations from a re-analysis of the deposited data

Results flagged for a closer look

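In 3 of 24 groups of values of the 6 genes, 1 mouse lay far from the rest of its group by a gap test that flags about 1 in 20 groups by chance. In saline-infused IKKβ+/+ mice, mouse X2370 had 57.9 normalized counts of Ckm against 15.9 to 27.3 in the others, and 98.5 of Acta1 against 7.17 to 22.2. Mouse X2370 also had 7.99 of Th and 21.3 of Dbh, and whether these go with its Ckm and Acta1 was not tested. In Ang II-treated IKKβ-/- mice, mouse X2380 had 127.5 of Acta1 against 28.6 to 33.7.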

How the results depend on the processing

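The log2 differences of the 6 genes moved by less than 1 residual SD in all 576 combinations of gene, comparison and alternative. That limit is wide, because leaving out 1 mouse from a group of 5 cannot move a difference that far. No stability is therefore read from this count. None of the called differences changed sign. Some that were not called did change sign with 1 mouse left out. With Ang II, Mylpf turned from -0.47 to 0.26 in IKKβ+/+ mice and from 0.26 to -0.03 in IKKβ-/- mice. Between genotypes with Ang II, Acta1 turned from -0.26 to 0.11 and Ckb from -0.102 to 0.002. The difference between the effects on Mybpc2 turned from 0.11 to -0.02. With Ang II in IKKβ+/+ mice the log2 difference of Ckm ran from 2.701 to 3.211 and that of Mybpc2 from -1.72 to -1.55 with 1 mouse left out. Counts of called genes depended more on the setting, and their causes were not tested. With Ang II in IKKβ+/+ mice 1286 genes were called, 2074 with array weights, 638 at an adjusted p under 0.05, 752 at a fold change above 1.5, 705 without mice X2350 and X2356, and 428 to 1915 with 1 mouse left out. In IKKβ-/- mice 785 were called, 295 with only the groups compared, 412 at an adjusted p under 0.05 and 435 to 1082 with 1 mouse left out. For the difference between the effects 0 were called by limma (1654 at an unadjusted p under 0.05), 76 with array weights, 3 with edgeR, 279 with DESeq2, 3 without mice X2350 and X2356 and 0 to 79 with 1 mouse left out. Between genotypes with saline 812 were called, 1420 with only the groups compared, 1902 with array weights, 1437 with DESeq2, 136 at an adjusted p under 0.05, 504 at a fold change above 1.5 and 24 to 1726 with 1 mouse left out. Between genotypes with Ang II 19 were called, 1 with only the groups compared, 521 with DESeq2, 4 without mice X2350 and X2356, 0 at an adjusted p under 0.05 and 0 to 553 with 1 mouse left out. Of the 19 striated muscle genes 1 was called with Ang II in IKKβ+/+ mice, 0 without mice X2350 and X2356 or at an adjusted p under 0.05, and 0 to 2 with 1 mouse left out. In IKKβ-/- mice 2 were called, 1 with array weights, with edgeR or at an adjusted p under 0.05, and 1 to 3 with 1 mouse left out. Between genotypes 1 was called with saline, 0 without the filter, with TMM or at an adjusted p under 0.05 and 0 to 1 with 1 mouse left out. With Ang II 0 were called (6 at an unadjusted p under 0.05), 2 with DESeq2 and 0 to 3 with 1 mouse left out. No paired analysis was possible because the mouse numbers are unique to each group. Tnnt3 and Mylpf rest on at most 55 and 20 reads in a mouse, and counting error was not separated from the spread between mice.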
